A study of Homo sapiens with 27 samples.

Results

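The genes described here are 10 liver genes of the acute phase response and iron control: HP, CRP, SAA1, SAA2, SAA4, ORM1, ORM2, LCN2, HAMP and ITIH4. They were chosen by symbol, and all 10 of 10 were found among the 58735 genes of both expression tables. RNA was sequenced from 27 libraries of HuH-7 and JHH-7, human liver cancer cell lines that were both kept in DMEM with 10% FBS and antibiotics. In each line the wild type group carried the non-targeting guide sgNTC. The knockout groups carried sgKLB, sgFGFR4 or sgFGFR3/4 in both lines, and sgFGFR1/3/4 in JHH-7 alone. Each of the 9 groups holds 3 libraries, called biological replicates in the labels, which do not say whether a group is 1 clone or a pool and name no batch or date. KLB is the co-receptor that FGFR4 needs to respond to FGF19, the bile acid hormone of the gut.

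In an acute phase response, inflammatory cytokines act on hepatocytes. IL6 works through STAT3, IL1 and TNF through NF-kB, and C/EBP factors are induced and bind the promoters of many secreted proteins. Haptoglobin, C-reactive protein, the serum amyloids and the orosomucoids are proteins of that response. Hepcidin, the product of HAMP, is a peptide hormone that lowers plasma iron by making cells degrade the iron exporter ferroportin. Its gene is driven by BMP receptors and SMAD factors when iron is high, and by STAT3 in inflammation. TMPRSS6, a membrane protease, cuts the BMP co-receptor hemojuvelin and so restrains HAMP.

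Promoters were at hand for 6 of the 10 genes, in RefSeq windows on GRCh38.p14 of 250 bases before to 50 after the start. The 4 shown belong to genes that the results turn on. Capitals mark matches to the motifs searched, counted from the start with bases before it negative.
HAMP, chr19:35282278-35282577, plus strand: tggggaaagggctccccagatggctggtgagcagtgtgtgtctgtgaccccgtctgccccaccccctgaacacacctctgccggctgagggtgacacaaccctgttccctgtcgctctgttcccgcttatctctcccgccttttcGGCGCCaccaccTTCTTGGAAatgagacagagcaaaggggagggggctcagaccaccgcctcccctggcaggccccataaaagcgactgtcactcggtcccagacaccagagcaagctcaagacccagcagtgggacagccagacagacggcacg
ORM1, chr9:114322848-114323147, plus strand: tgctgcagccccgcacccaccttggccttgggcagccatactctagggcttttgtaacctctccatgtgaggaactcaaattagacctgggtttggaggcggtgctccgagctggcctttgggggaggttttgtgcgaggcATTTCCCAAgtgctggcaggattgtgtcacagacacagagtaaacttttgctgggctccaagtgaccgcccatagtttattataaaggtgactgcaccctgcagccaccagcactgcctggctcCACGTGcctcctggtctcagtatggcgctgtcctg
SAA4, chr11:18236753-18237052, minus strand: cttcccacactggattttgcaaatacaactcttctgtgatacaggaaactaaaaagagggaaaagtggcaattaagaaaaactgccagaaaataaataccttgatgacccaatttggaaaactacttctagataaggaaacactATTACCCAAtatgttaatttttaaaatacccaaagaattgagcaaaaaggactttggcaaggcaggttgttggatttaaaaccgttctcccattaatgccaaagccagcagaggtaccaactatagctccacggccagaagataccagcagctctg
ITIH4, chr3:52830623-52830922, minus strand: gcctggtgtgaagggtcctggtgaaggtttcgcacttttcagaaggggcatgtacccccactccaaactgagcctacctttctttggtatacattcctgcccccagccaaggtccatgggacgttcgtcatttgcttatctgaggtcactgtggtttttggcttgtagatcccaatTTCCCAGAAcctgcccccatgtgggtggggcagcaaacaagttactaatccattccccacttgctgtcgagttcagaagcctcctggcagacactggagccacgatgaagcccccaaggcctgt
In HAMP the capitals are GGCGCC, the core of a BMP response element, at -105 to -100, and a STAT match, TTCTTGGAA, at -93 to -85. In ORM1 they are a C/EBP match at -109 to -101, read on the other strand, and an E-box at 16 to 21. SAA4 has a C/EBP match on the other strand at -106 to -98. ITIH4 has the STAT match TTCCCAGAA at -74 to -66.

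The searches covered both strands of the windows. Among all 35116 windows of the same length, TTCNNNGAA (STAT) was in 7.66%, TTGCGNAA or TTNNGNAAT (C/EBP) in 11.6%, GGCGCC in 19.2% and CACGTG (E-box) in 7.26%. The NF-kB motifs searched were in 3.61% of all windows and in none of the 6. CRP held 1 C/EBP match, and LCN2 held none of the motifs. These matches describe letters only.

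Libraries were estimated at 14100000 to 27700000 fragments each. All 11 of 11 hepatocyte markers were at 1 FPKM or more in every library of both lines, where FPKM is fragments normalized to transcript length and to library size. Each guide target was lower in its groups. KLB went from a mean of 17.07 in sgNTC to 6.52 FPKM in HuH-7 sgKLB and from 15.48 to 7.25 in JHH-7 sgKLB. Of 8 immune markers, 5 were under 1 FPKM in every library of both lines, with MS4A1 at 0, while LYZ, CD68 and, in HuH-7, CD14 were expressed. LYZ ran from 17.55 to 34.66 FPKM in HuH-7 and from 165.19 to 357.91 in JHH-7. Of 4 endothelial markers, 3 were under 1, with KDR at 0, while PECAM1 lay at 0.49 to 1.96 FPKM in HuH-7 and 9.22 to 15.72 in JHH-7. Of 6 stromal markers, 3 in HuH-7 and 4 in JHH-7 were under 1 in every library. COL1A1 ran from 9.09 to 25.4 FPKM in HuH-7 and from 1.52 to 7.1 in JHH-7. COL1A2 ran from 9.09 to 20.96 in HuH-7, and PDGFRB reached 2.71 in HuH-7 and 4.58 in JHH-7. In bulk libraries fewer cells of a type and less RNA per cell cannot be told apart.

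**Figure D1:**
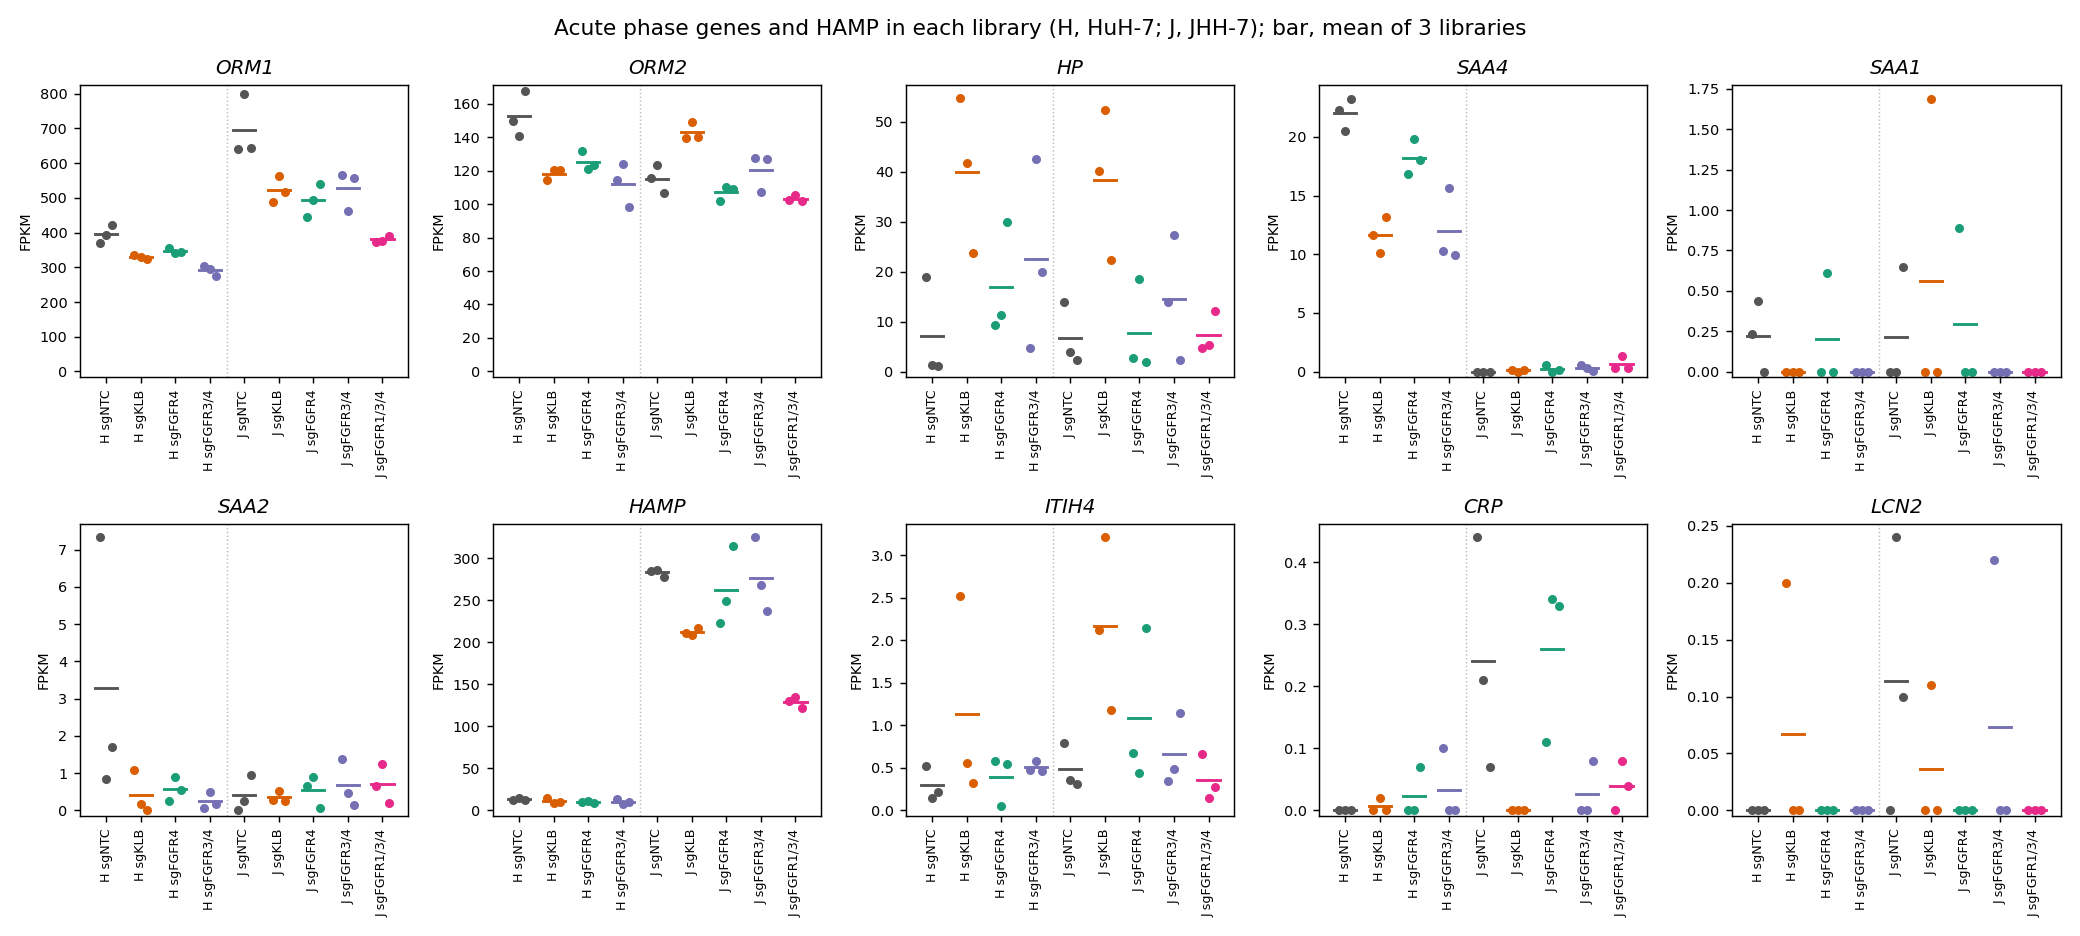
FPKM of the 10 genes in each library, by line and guide group. Points are libraries, bars are means of 3 libraries, and every panel has its own axis from 0. HAMP lay at 7.32 to 14.89 in HuH-7 and at 121.67 to 325.37 in JHH-7, SAA4 was near 0 in JHH-7, and HP was scattered in most groups.

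Levels split the genes into abundant, intermediate and barely detected ones. ORM1, which encodes alpha-1-acid glycoprotein, a drug- and lipid-binding plasma protein, was the most abundant, with 274.94 to 422.11 FPKM in HuH-7 and 373.69 to 799.16 in JHH-7. Its twin ORM2 lay at 98.31 to 167.75 and 101.81 to 149.31. HP had 1.18 to 54.69 FPKM in HuH-7 and 1.89 to 52.44 in JHH-7.

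The classical inflammatory markers were close to absent. CRP, the pentraxin measured in clinics as a sign of inflammation, never passed 0.1 FPKM in HuH-7 or 0.44 in JHH-7, and was listed at 0 in 9 of 12 and 6 of 15 libraries. SAA1, an apolipoprotein of high-density lipoprotein that surges in inflammation, was listed at 0 in 9 of 12 and 12 of 15 libraries and reached 1 FPKM in 1 library, JHH-7 sgKLB replicate 2, at 1.69. LCN2, an iron-siderophore binding lipocalin made by neutrophils and stressed epithelia, was at 0 in 11 of 12 and 11 of 15 libraries, with a maximum of 0.24. These 3 genes were under the filter for testing, which asked for 3 or more libraries of the fit at 1 FPKM or above. Of the 10 genes, 6 passed it in HuH-7 (HP, SAA2, SAA4, ORM1, ORM2 and HAMP) and 5 in JHH-7 (HP, ORM1, ORM2, HAMP and ITIH4). ITIH4 in HuH-7 and SAA2 and SAA4 in JHH-7 were left untested within the line. ITIH4 passed in JHH-7 only through sgKLB, which holds 3 of its 5 libraries at 1 FPKM or more, and SAA2 passed in HuH-7 on 3 libraries, 2 of them sgNTC. Both therefore entered through a group where they are high, and neither is counted below as support.

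The control groups of the lines differed in HAMP and SAA4. HAMP stood at 285.35, 286.43 and 278.25 FPKM in JHH-7 sgNTC against 12.53, 14.62 and 12.32 in HuH-7 sgNTC, 21.5-fold in the means. On the log2(FPKM + 1) scale, used for every difference and test here, this was 4.33 ± 0.169 (SE) with a limma adjusted p of 5.95e-16. The adjustment is by Benjamini-Hochberg over all genes tested, with calls under 0.05. SAA4, the constitutively made serum amyloid of lipoproteins, went the other way. It had 22.28, 20.46 and 23.26 FPKM in HuH-7 sgNTC and was listed at 0 in the 3 JHH-7 sgNTC libraries (limma adjusted p = 5.49e-15).

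Of the 7 genes past the filter over both lines, 2 were called higher in JHH-7 sgNTC (HAMP and ORM1) and 3 lower (SAA2, SAA4 and ORM2), where 64% of all 16731 genes tested were called (35% higher and 28.9% lower). SAA4 entered that fit through its higher line, with 12 HuH-7 libraries and 1 of JHH-7 at 1 FPKM or more, and SAA2 through 3 and 2, so the calls of both are a description. ORM1 averaged 694.98 against 395.25 FPKM (log2 difference 0.81, adjusted p 2.45e-08 in limma). ORM2 averaged 115.23 against 152.79 (-0.40, adjusted p 0.000134 in limma). SAA2 averaged 0.4 against 3.28 FPKM (limma adjusted p 0.00721), which became 0.0936 without HuH-7 sgNTC replicate 1. HP, at 6.7 and 7.16 FPKM in the control means, was not called.

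HAMP, the hepcidin gene at chr19:35280716-35285143 on the plus strand (GRCh38), fell to its lowest JHH-7 level in the sgFGFR1/3/4 group. The 3 libraries read 130.53, 134.59 and 121.67 FPKM, below every other JHH-7 library. The mean was 128.93 against 283.34 FPKM in sgNTC, 2.20-fold lower (log2 change -1.13 ± 0.115, limma adjusted p = 4.33e-06). Against sgFGFR3/4, which lacks the FGFR1 guide, the log2 difference was -1.09 (limma adjusted p = 1.68e-05). The sgFGFR1/3/4 libraries were unusually alike, with FPKM sums of 734240.73 to 734381.28. Their median replicate SD over all genes tested was 0.112 log2 units, against 0.132 to 0.174 in the other groups of both lines. The labels give no reason. What this likeness means for the calls of the group, ORM1 among them, was not tested.

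In JHH-7 sgKLB, HAMP read 210.92, 208.24 and 217.31 FPKM, also below all 3 control libraries. That fall was smaller, -0.42 ± 0.115 with a limma adjusted p of 0.0123, and sgKLB stayed above sgFGFR1/3/4 by 0.72 (limma adjusted p = 0.00035). HAMP in JHH-7 sgFGFR4 read 223.13, 248.74 and 314.29 FPKM. In sgFGFR3/4 it read 325.37, 267.96 and 237.37, so both groups overlapped the controls. Their log2 differences from sgNTC were -0.13 (95% interval -0.37 to 0.12) and -0.05 (-0.29 to 0.20), neither called. The order of the JHH-7 group means was therefore sgNTC, sgFGFR3/4, sgFGFR4, sgKLB and sgFGFR1/3/4, with the first 3 overlapping. HAMP of every JHH-7 group lay above HuH-7.

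HAMP in HuH-7 was low and had no call. The sgKLB libraries read 14.89, 9.1 and 9.92 FPKM, the sgFGFR4 libraries 9.88, 10.52 and 8.19, and the sgFGFR3/4 libraries 13.34, 7.32 and 10.49. The sgFGFR4 libraries were all below the controls, but none of the 3 differences was called (log2 -0.23, -0.43 and -0.35, limma adjusted p 0.512, 0.201 and 0.268). The test of the line difference for sgKLB gave -0.19 (95% interval -0.69 to 0.31, limma adjusted p 0.661), so a smaller or larger HAMP response in JHH-7 was not shown.

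The upstream arm that controls HAMP had calls in both directions and a median near that of all genes. Of 22 BMP and iron-sensing genes tested, 5 rose and 4 fell in JHH-7 sgKLB, and 7 rose and 3 fell in JHH-7 sgFGFR1/3/4, where 31.9% and 39.8% of all genes were called. The medians were -0.03 and 0.08 (all genes -0.02 and 0.03). ID1, a direct SMAD target, fell from a mean of 995.97 to 473.11 FPKM in JHH-7 sgKLB (log2 -1.07) and to 717.90 in sgFGFR1/3/4 (-0.47, limma adjusted p 0.000111). BAMBI, a decoy BMP receptor, fell from 41.44 to 21.26 FPKM in JHH-7 sgKLB (-0.93). TFR2, a sensor of iron-loaded transferrin that promotes HAMP expression, fell from 11.33 to 6.22 FPKM in sgFGFR1/3/4 (-0.77, limma adjusted p 0.000417).

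Other members of the arm rose. TMPRSS6, the brake on HAMP, rose from 2.49 to 11.95 FPKM in JHH-7 sgKLB (log2 1.89, limma adjusted p 1.01e-06). In HuH-7 sgKLB it rose from 15.10 to 35.85 (1.20, limma adjusted p 6.67e-05). ID2, another target of BMP signals, rose in JHH-7 from 138.86 to 305.84 FPKM in sgKLB and to 289.31 in sgFGFR1/3/4. BMP2, a ligand, rose from 28.88 to 44.84 in sgFGFR1/3/4 (0.62). ID1 and ID2 thus moved in opposite directions in the same libraries. In HuH-7 sgKLB, 3 of the 22 rose and 4 fell (17.6% of all genes called), with BMP4, a BMP ligand, from 63.33 to 41.35 FPKM (-0.60) and ID1 from 1441.26 to 1050.15 (-0.46).

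Among 15 iron-handling genes tested in JHH-7, 4 rose and 2 fell in sgKLB (31.9% of all genes called), and 4 rose and 6 fell in sgFGFR1/3/4 (39.8%). Their medians, -0.01 and -0.03, lay close to those of all genes, -0.02 and 0.03. SLC40A1, which encodes ferroportin, the target of hepcidin, rose from 27.95 to 76.92 FPKM in sgFGFR1/3/4 (log2 1.43, limma adjusted p 1.67e-08). HMOX1, the heme-degrading oxygenase, rose from 29.74 to 94.80 in sgKLB (1.66) and to 69.16 in sgFGFR1/3/4 (1.21). FTL, the ferritin light chain, fell from 5133.10 to 3749.36 in sgFGFR1/3/4 (-0.45).

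ORM1 was lower in every knockout group of both lines, and the call was made in 6 of the 7 comparisons with sgNTC, which share their controls within a line. In JHH-7 sgNTC it read 642.19, 799.16 and 643.58 FPKM. The sgFGFR1/3/4 libraries read 373.69, 376.59 and 391.63, which is 1.83-fold lower in the means (log2 -0.86 ± 0.10, limma adjusted p = 1.45e-05). JHH-7 sgKLB had 488.6, 561.83 and 517.28 FPKM (-0.41, limma adjusted p = 0.00609). No knockout library of JHH-7 reached the lowest control.

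The single and double receptor groups of JHH-7 lay between. ORM1 read 446.1, 494.17 and 540.36 FPKM in sgFGFR4 (log2 -0.49, limma adjusted p 0.0135). It read 565.39, 461.42 and 558.59 in sgFGFR3/4 (-0.39, limma adjusted p 0.0458). The sgFGFR4 call was lost without sgNTC replicate 2 (adjusted p 0.0604), sgFGFR4 replicate 1 (0.0809) or sgFGFR4 replicate 2 (0.0516), all in limma. The sgFGFR3/4 call was lost on leaving out any 1 of its 6 libraries, with limma adjusted p of 0.0534 to 0.147. Against sgFGFR3/4, sgFGFR1/3/4 was lower still by 0.47 (limma adjusted p 0.00292), and sgKLB was above sgFGFR1/3/4 by 0.45 (0.00304). 

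In HuH-7, ORM1 fell from 369.76, 393.87 and 422.11 FPKM in sgNTC to 334.77, 328.8 and 323.38 in sgKLB. The change was small and tight, log2 -0.26 ± 0.058 with a limma adjusted p of 0.00872. In sgFGFR3/4 it read 304.97, 295.25 and 274.94 (-0.44, limma adjusted p 0.000812). HuH-7 sgFGFR4 had 355.84, 341.63 and 342.91 FPKM, below all controls but not called (-0.19, limma adjusted p 0.0778), which became 0.0436 without sgNTC replicate 1. Rescaling each library to a common FPKM sum made these falls smaller: -0.20 in sgKLB, -0.33 in sgFGFR3/4 and -0.10 in sgFGFR4. The calls for sgKLB and sgFGFR3/4 held. ORM1 was the most reproducible of these genes in HuH-7, with a replicate SD of 0.064 on the log2 scale.

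**Figure D2:**
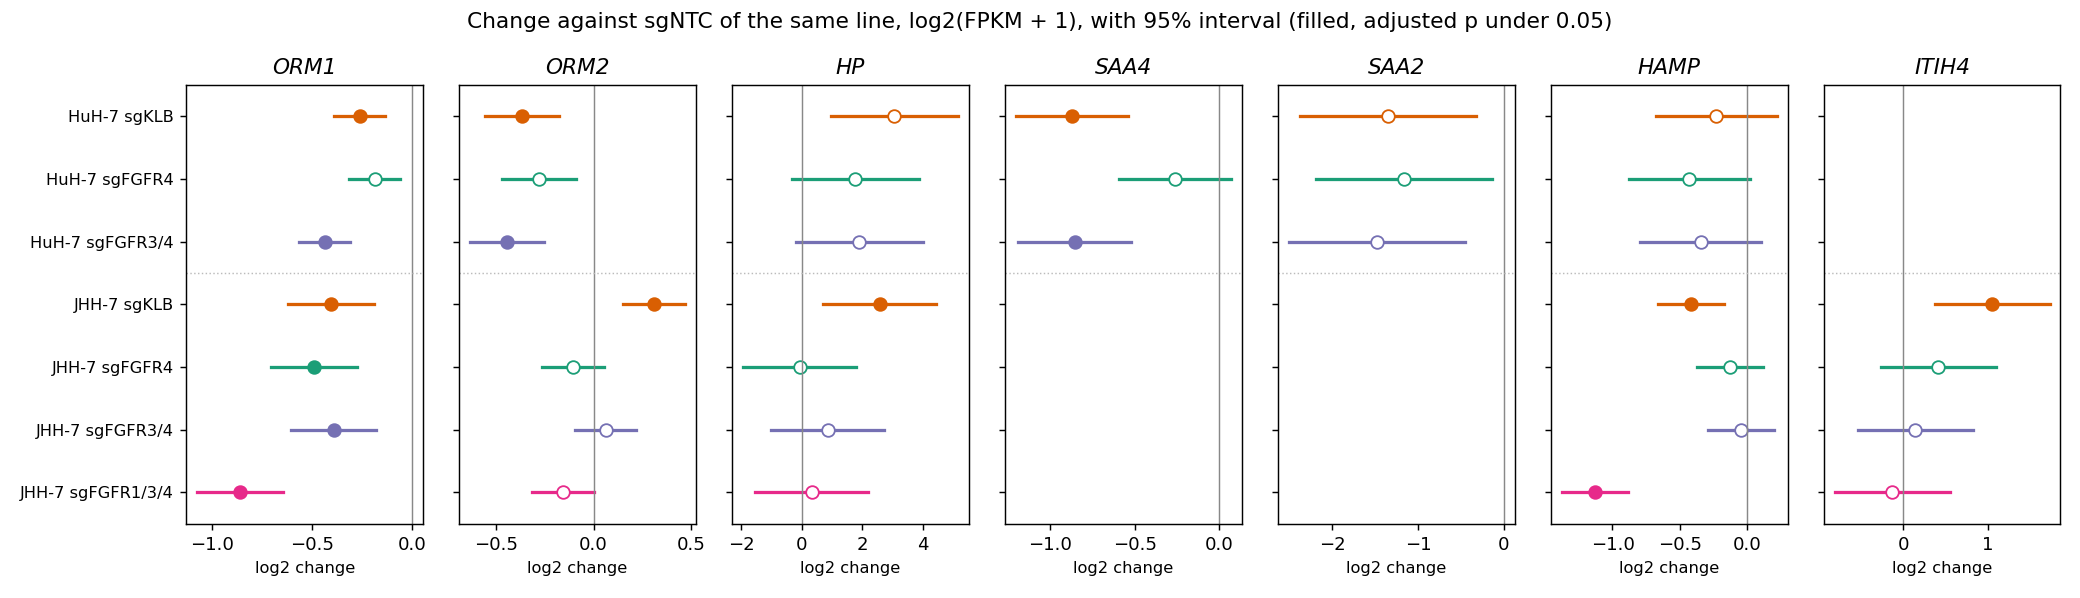
Difference of each knockout group from sgNTC of its line on the log2(FPKM + 1) scale, with 95% intervals from limma. Filled circles have an adjusted p under 0.05, and empty rows were under the filter in that line. ORM1 lies left of 0 in all 7 comparisons, HP right of 0 in 6 of 7, and ORM2 on opposite sides in HuH-7 sgKLB and JHH-7 sgKLB.

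ORM2 did not follow ORM1 in JHH-7. In sgKLB it read 139.71, 149.31 and 140.06 FPKM, above the controls at 115.52, 123.24 and 106.92, a rise of 0.31 ± 0.074 (limma adjusted p = 0.00471). JHH-7 sgFGFR4 had 101.88, 110.46 and 108.74 FPKM, sgFGFR3/4 had 127.27, 107.34 and 126.81, and sgFGFR1/3/4 had 102.64, 105.2 and 101.81. None of these was called against sgNTC (log2 -0.10, 0.06 and -0.16). ORM2 was higher in sgKLB than in sgFGFR1/3/4 by 0.47 (limma adjusted p 0.000311). The difference of sgFGFR1/3/4 from sgFGFR3/4, -0.22 with a limma adjusted p of 0.0365, was lost without the filter (0.0773), on TPM, which rescales FPKM to a common sum in each library (0.082), and on leaving out sgFGFR3/4 replicate 1 or 3 or any 1 sgFGFR1/3/4 library, with limma adjusted p of 0.0672 to 0.132.

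HuH-7 ORM2 fell together with ORM1. It read 149.81, 140.81 and 167.75 FPKM in sgNTC and 114.11, 120.1 and 120.12 in sgKLB (log2 -0.37 ± 0.087, limma adjusted p = 0.0123). HuH-7 sgFGFR3/4 had 114.66, 123.95 and 98.31 FPKM (-0.44, limma adjusted p = 0.00658), and sgFGFR4 had 131.53, 120.79 and 123.64, not called (-0.28, limma adjusted p 0.0754). On TPM these HuH-7 falls were smaller, -0.30 in sgKLB, -0.34 in sgFGFR3/4 and -0.20 in sgFGFR4. The response to sgKLB differed between the lines by 0.68 ± 0.113 (limma adjusted p = 0.000125), and that to sgFGFR3/4 by 0.51 (0.00954).

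The pair sits side by side on chromosome 9 (GRCh38, ORM1 at chr9:114323056-114326475 and ORM2 at chr9:114329869-114333252, both on the plus strand), and 49.8% of the 31-base words of ORM1 transcripts also occur in ORM2, 59.3% the other way round. How reads were split between them can therefore move one against the other. The sum of both was 750.5 to 922.40 FPKM in JHH-7 sgNTC and 628.31 to 711.14 in sgKLB, without overlap. With the pair summed, JHH-7 sgKLB was lower by 0.28 (log2 -0.28, limma adjusted p 0.0342), the opposite sign of ORM2 alone. In the sgNTC comparison of the lines the sum gave 0.56, where ORM2 alone gave -0.40. The line differences of the sum were 0.01 for sgKLB (adjusted p 0.963) and 0.12 for sgFGFR3/4 (adjusted p 0.583), both in limma. ORM1 was most of the sum in every group. The sum thus mainly follows ORM1 and cannot decide how ORM2 alone changed.

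Within the sum the share given to ORM2 changed in JHH-7. It was 13.4% to 15.2% in sgNTC, 16.8% to 18.6% in sgFGFR4, 18.4% to 18.9% in sgFGFR3/4, 20.6% to 21.8% in sgFGFR1/3/4 and 21.0% to 22.2% in sgKLB. Each JHH-7 knockout group lay above the controls without overlap. In HuH-7 all 4 groups lay between 25.4% and 29.6%. The sum in JHH-7 sgFGFR1/3/4, at 476.33 to 493.44 FPKM, was the lowest of that line. No test was made on the share, which was examined after its values were seen.

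**Figure D3:**
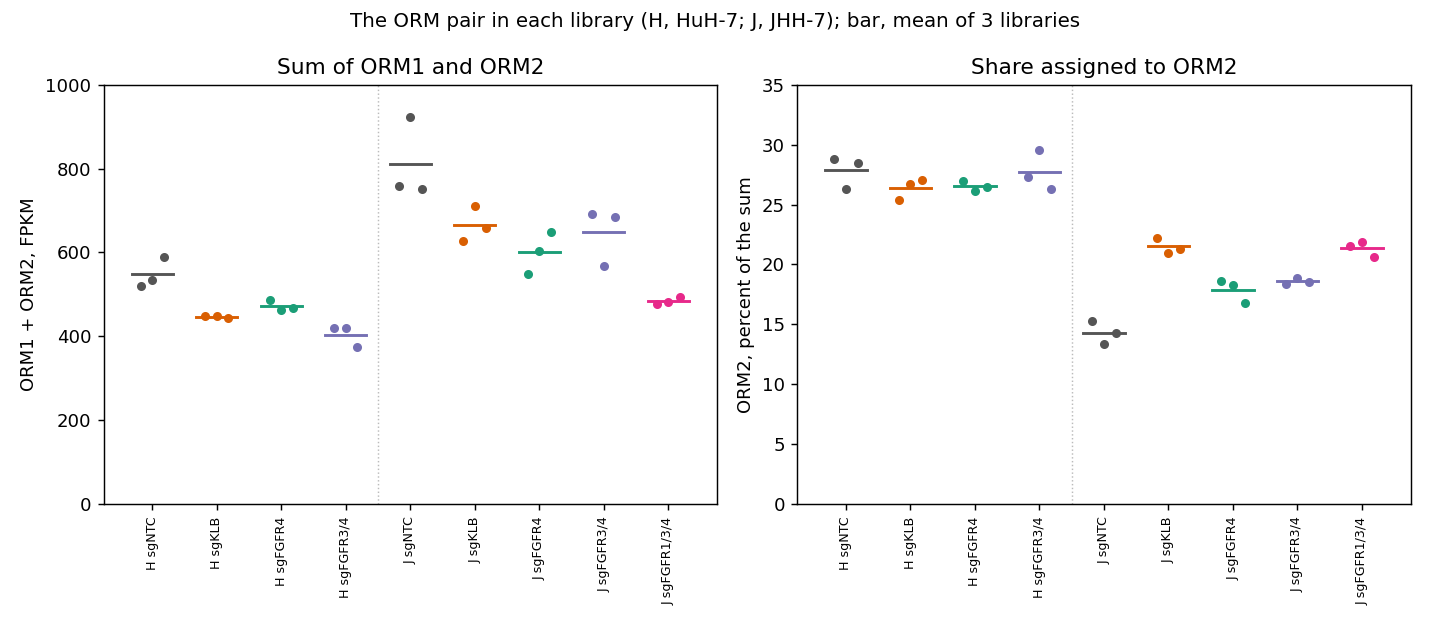
Sum of ORM1 and ORM2 in FPKM (left) and the percent of that sum given to ORM2 (right) in each library, with bars at the means of 3 libraries. In JHH-7 the sum is lower and the ORM2 share higher in every knockout group than in sgNTC, while the HuH-7 shares stay between 25.4% and 29.6%.

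HP, the hemoglobin-binding haptoglobin, had its highest means in the sgKLB groups of both lines and the widest replicate spread of the genes described here that were tested. It lies at chr16:72054592-72061055 on the plus strand (GRCh38). In JHH-7 sgNTC the libraries read 13.87, 3.82 and 2.41 FPKM, and in sgKLB 40.18, 52.44 and 22.42. These groups did not overlap, and the rise was 2.57 ± 0.861 on the log2 scale, 5.72-fold in the means, with a limma adjusted p of 0.0376. The call was lost without sgNTC replicate 2 (adjusted p 0.0996), sgNTC replicate 3 (0.126), sgKLB replicate 1 (0.0938) or sgKLB replicate 2 (0.11), and without the filter on low values (0.0722), all in limma.

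HuH-7 sgNTC held 1 library far from the others, with HP at 19.01, 1.3 and 1.18 FPKM. In sgKLB the libraries read 54.69, 41.71 and 23.64, above all controls. The difference, 3.06 ± 0.944 (95% interval 0.96 to 5.17), missed the threshold with a limma adjusted p of 0.0504. It was 4.12 without sgNTC replicate 1 (limma adjusted p = 0.00782). HuH-7 sgFGFR4 had 9.42, 11.38 and 29.87 FPKM and sgFGFR3/4 had 4.76, 42.57 and 20.01, both overlapping the controls and not called (limma adjusted p 0.255 and 0.193), the latter 0.0332 without sgNTC replicate 1.

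HP in the other JHH-7 groups was scattered as widely. It read 2.69, 18.44 and 1.89 FPKM in sgFGFR4, 13.91, 27.26 and 2.4 in sgFGFR3/4, and 4.8, 5.23 and 12.14 in sgFGFR1/3/4. All 3 overlapped the controls, and none was called. Their log2 differences had 95% intervals of -1.95 to 1.79, -1.02 to 2.72 and -1.55 to 2.19, which leave room for large changes either way. HP in JHH-7 sgKLB lay above sgFGFR1/3/4 by 2.25, not called (limma adjusted p 0.0594). In the order of the 9 group means, from 40.01 FPKM in HuH-7 sgKLB to 6.70 in JHH-7 sgNTC, every group overlapped the next.

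The replicate spread of HP stood out. Its SD about the group means was 1.28 log2 units in HuH-7 and 1.16 in JHH-7, above 99.9% of 2698 and 99.8% of 2603 genes of like level. The median gene had 0.174 and 0.181. Within HuH-7 sgNTC the highest HP library was 16.1 times the lowest, and in JHH-7 sgFGFR3/4 11.4 times. The other tested genes lay lower, with ORM2 at 0.112 and 0.086, HAMP at 0.284 and 0.157 and SAA4 at 0.202 in HuH-7. SAA2 in HuH-7 (0.661) and ITIH4 in JHH-7 (0.410), both of low level, were wider. HAMP was still wide for its level, above 84.0% of like-level genes in HuH-7 and 92.7% in JHH-7. For ORM1 these shares were 19.6% and 79.4%, and for ORM2 64.2% and 27.2%.

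**Figure D4:**
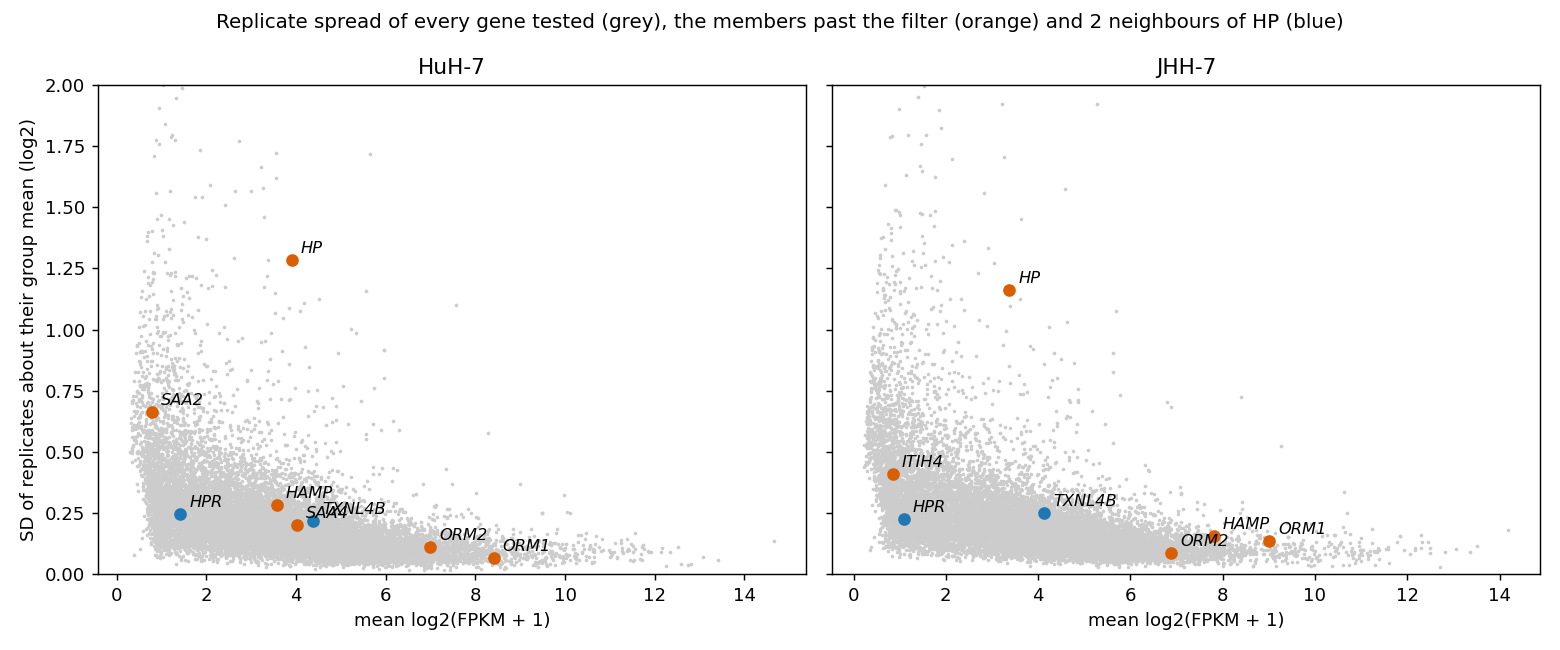
SD of replicates about their group means against mean level, both on the log2(FPKM + 1) scale, for every gene tested in each line (grey, 20 genes above the plotted range). HP lies at 1.28 and 1.16, far above genes of its level. ORM1, ORM2 and HAMP lie closer to theirs, with HAMP toward the upper end in both lines.

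HPR, the haptoglobin-related gene next to HP, shares 31-base words with it: 39.0% of those of HPR and 15.9% of those of HP. HPR was low. It read 0.73, 0.35 and 0.54 FPKM in HuH-7 sgNTC and 3.95, 4.17 and 3.15 in sgKLB (log2 1.63 ± 0.207, limma adjusted p = 0.000244). In JHH-7 it read 0.14, 0.46 and 0.63 in sgNTC and 3.04, 3.84 and 3.01 in sgKLB (1.62 ± 0.206, limma adjusted p = 3.04e-05). HPR was thus several times higher in the sgKLB group of each line, with no overlap. This was not particular to sgKLB. In HuH-7, HPR read 1.05 to 1.85 FPKM in sgFGFR4 and 1.46 to 2.88 in sgFGFR3/4. In JHH-7 it read 0.78 to 1.23 in sgFGFR4 and 0.72 to 1.5 in sgFGFR3/4. All of these lay above the controls of their line and below sgKLB. JHH-7 sgFGFR1/3/4, at 0.5 to 1.06, overlapped the controls.

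The replicate SD of HPR was 0.246 and 0.224 on the log2(FPKM + 1) scale, which compresses values under 1, and within JHH-7 sgNTC its FPKM ranged 4.5-fold. With HP and HPR summed, the HuH-7 sgKLB difference was 3.01 (limma adjusted p = 0.0385), a call that HP alone missed. HP also lies inside the span of TXNL4B, a splicing factor gene on the opposite strand, with no exonic base in common, and TXNL4B had a spread of 0.218 and 0.249. What HP reads owe to either neighbour was not tested.

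**Figure D5:**
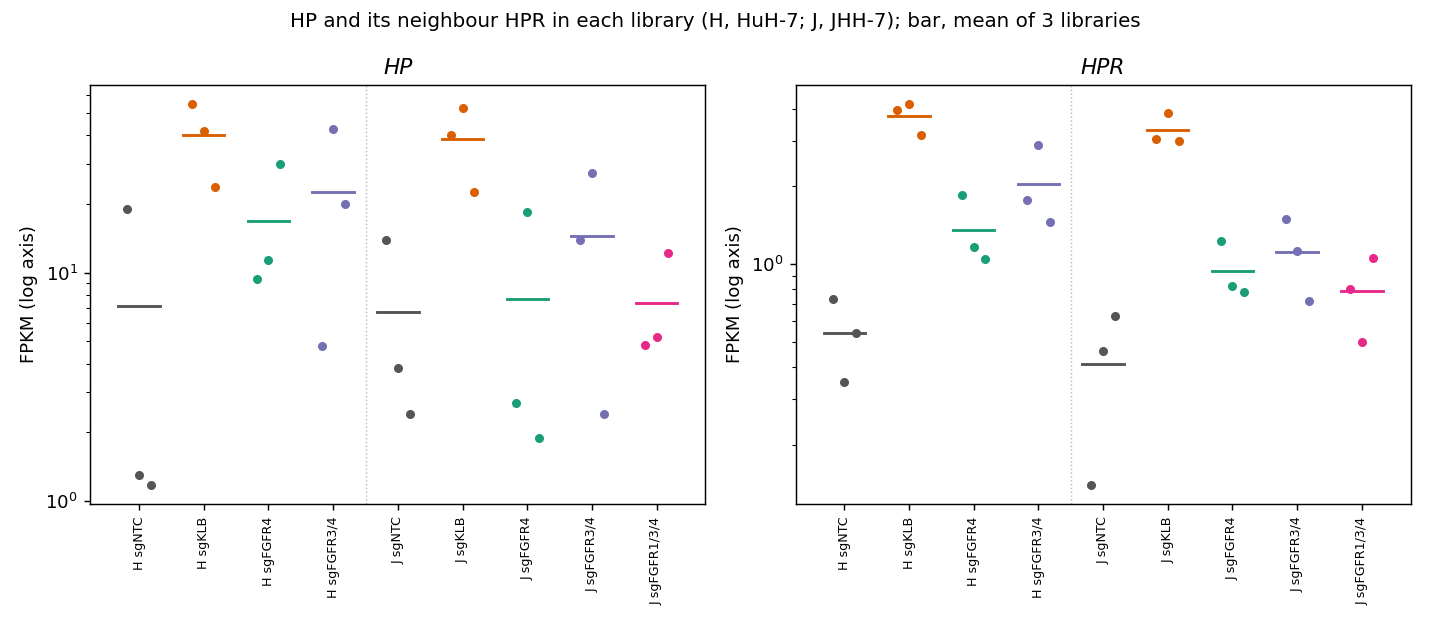
FPKM of HP (left) and HPR (right) in each library on log axes, with bars at the means of 3 libraries. HP ranges from 1.18 to 19.01 within HuH-7 sgNTC alone, while the sgKLB libraries of HPR, at 3.01 to 4.17, lie above every other library of the HPR plot.

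SAA4 fell in HuH-7, the line that made it. From 22.28, 20.46 and 23.26 FPKM in sgNTC it went to 11.61, 10.14 and 13.14 in sgKLB, 1.89-fold lower in the means (log2 -0.87 ± 0.152, limma adjusted p = 0.00205). HuH-7 sgFGFR3/4 had 10.28, 15.61 and 9.94 FPKM (-0.85, limma adjusted p = 0.00427). In sgFGFR4 the libraries read 16.8, 19.8 and 18, just under the controls and not called (-0.26, limma adjusted p 0.286).

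SAA4 in sgKLB was below sgFGFR4 by 0.61 on the log2 scale (limma adjusted p 0.0195). This call was lost without sgKLB replicate 1 (adjusted p 0.0559), sgKLB replicate 2 (0.0645), sgFGFR4 replicate 2 (0.0785) or sgFGFR4 replicate 3 (0.0535), all in limma. The difference of sgFGFR3/4 from sgFGFR4 was -0.59 (limma adjusted p 0.0874), and 0.0135 without sgFGFR3/4 replicate 2, the library at 15.61. SAA4 of JHH-7 knockouts reached 1.34 FPKM in 1 sgFGFR1/3/4 library and 0.55 or less in the others.

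SAA4 (chr11:18231349-18236893) and SAA2 (chr11:18239223-18248643) are neighbours on the minus strand, and the read-through gene SAA2-SAA4 holds 64.4% of the 31-base words of SAA4. That gene was listed at 0 in every library but HuH-7 sgFGFR4 replicate 1, at 0.18 FPKM. SAA2, an inducible serum amyloid, read 7.33, 0.83 and 1.69 in HuH-7 sgNTC and 1.07, 0.18 and 0 in sgKLB. HuH-7 sgFGFR4 had 0.24, 0.9 and 0.54, and sgFGFR3/4 had 0.07, 0.49 and 0.18.

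Only sgFGFR3/4 lay wholly below the SAA2 controls. The log2 differences were -1.36 for sgKLB (limma adjusted p 0.0685), -1.17 for sgFGFR4 (0.141) and -1.48 for sgFGFR3/4 (0.0519). Since the filter admitted SAA2 mostly through sgNTC, the fit without the filter is the one to read. It gave limma adjusted p of 0.154 for sgKLB, 0.275 for sgFGFR4 and 0.121 for sgFGFR3/4, none called. With the filter, the differences for sgKLB and sgFGFR3/4 passed without sgNTC replicate 2, both with a limma adjusted p of 0.0238. SAA1 shares 53.2% of its words with SAA2. With SAA1, SAA2 and SAA2-SAA4 summed, and with the filter, sgKLB gave -1.47 (limma adjusted p 0.0442) and sgFGFR3/4 -1.60 (0.0359). In JHH-7, SAA2 had a median of 0.46 and a maximum of 1.39 FPKM.

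ITIH4, a heavy chain of the inter-alpha-trypsin inhibitor family cleaved by plasma kallikrein, was rare throughout. In JHH-7 it read 0.79, 0.36 and 0.31 FPKM in sgNTC and 2.12, 3.21 and 1.18 in sgKLB, a log2 difference of 1.06 ± 0.319. The groups did not overlap. Since the filter admitted ITIH4 through sgKLB, the fit without the filter is the one to read, with a limma adjusted p of 0.0455 (0.02 with the filter). With the filter the call was lost without sgNTC replicate 2 (adjusted p 0.0552), sgNTC replicate 3 (0.0654), sgKLB replicate 1 (0.0528) or sgKLB replicate 2 (0.0955), all in limma. The sgFGFR4 libraries had 0.67, 0.44 and 2.14, the sgFGFR3/4 libraries 0.35, 0.48 and 1.14, and the sgFGFR1/3/4 libraries 0.66, 0.15 and 0.27, each overlapping the controls. The log2 difference of sgKLB from sgFGFR1/3/4 was 1.19, with a limma adjusted p of 0.0246 without the filter (0.0101 with it, and 0.0533 with it but without sgKLB replicate 2).

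In HuH-7, ITIH4 read 0.52, 0.15 and 0.21 FPKM in sgNTC and 2.52, 0.56 and 0.32 in sgKLB, where 1 library carried the mean. The overlapping gene AC006254.1 holds 68.8% of the 31-base words of ITIH4 and lay at 0.04 to 0.59 FPKM. CRP in JHH-7 read 0.44, 0.21 and 0.07 in sgNTC and 0.11, 0.34 and 0.33 in sgFGFR4. It was at 0 in all 3 sgKLB libraries. LCN2 had no library above 0.24.

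Counted by comparison, 3 of the 6 genes past the filter fell and 0 rose in HuH-7 sgKLB (SAA4, ORM1 and ORM2), where 17.6% of all 14716 genes tested were called, 8.98% as higher and 8.62% as lower. The same 3 fell in HuH-7 sgFGFR3/4, where 16.1% were called, 8.9% as higher and 7.22% as lower. Of all calls, 51.0% and 55.2% were higher in these comparisons, and 64.0% and 77.8% on TPM. None of the 6 was called by limma in HuH-7 sgFGFR4, where 3.71% of genes were (2.07% higher, 1.64% lower). An unadjusted limma p under 0.05 was found for ORM1, ORM2 and SAA2, the last admitted mostly through sgNTC. The share of all genes under that unadjusted threshold was not computed, so these 3 are no result about the genes. The background of 546 called genes in HuH-7 sgFGFR4 is itself unstable, at 1207 without HuH-7 sgNTC replicate 1 and 1 to 4 without any other library of the comparison.

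In JHH-7 sgKLB, 31.9% of 14987 genes were called (15.5% higher, 16.4% lower). Of the genes described here HP and ORM2 were called higher and ORM1 and HAMP lower, and ITIH4, the fifth past the filter, was called higher after entering through this group, so the count of 5 of 5 is no support. In JHH-7 sgFGFR4, 1 of 5 was called, ORM1, against 4.25% of genes (2.42% higher, 1.83% lower). It was also the 1 call in JHH-7 sgFGFR3/4, where 3.53% of genes were called (2.24% higher, 1.29% lower). In sgFGFR1/3/4, 2 of 5 fell (ORM1 and HAMP), and 39.8% of genes were called (20.8% higher, 19% lower).

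Groups that did not overlap sgNTC were counted too. These were 4 of 6 genes in HuH-7 sgKLB (33.7% of all genes), 4 of 6 in HuH-7 sgFGFR4 (33.1%) and 4 of 6 in HuH-7 sgFGFR3/4, SAA2 included (33%). In JHH-7 they were 5 of 5 in sgKLB, ITIH4 included (42.8%), 1 of 5 in sgFGFR4 (22.4%), 1 of 5 in sgFGFR3/4 (18.3%) and 3 of 5 in sgFGFR1/3/4 (53.2%). SAA2 and ITIH4 passed the filter through groups where they are high, so neither is support here.

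Between knockouts, 1 of 6 was called lower for HuH-7 sgKLB against sgFGFR4 (16.7% of genes, 7.09% higher and 9.64% lower). For HuH-7 sgFGFR3/4 against sgFGFR4, limma called 0 of 6 (1.62% of genes, 1.02% higher and 0.598% lower), and 2 had an unadjusted p under 0.05. JHH-7 sgFGFR1/3/4 against sgFGFR3/4 had 3 of 5 lower (32.2% of genes, 16.8% higher and 15.4% lower). JHH-7 sgKLB against sgFGFR1/3/4 had 4 of 5 higher, ITIH4 again among them (35.7% of genes, 15.9% higher and 19.7% lower). The line differences had 2 of 7 higher for sgKLB (19.7% of genes, 9.8% higher and 9.9% lower) and 2 of 7 higher for sgFGFR3/4 (7.21% of genes, 3.77% higher and 3.44% lower). In both, the 2 were SAA4 and ORM2. SAA4 entered that fit through HuH-7 and was at 0 in JHH-7 sgNTC, so its calls are no support. For the sgFGFR4 line difference limma called 0 of 7 (4.12% of genes, 2.37% higher and 1.75% lower), with 2 at an unadjusted p under 0.05, SAA2 among them. The share of all genes under that unadjusted threshold was not computed for either comparison with 0 calls.

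Other positive acute phase genes mostly rose in HuH-7 sgKLB and sgFGFR3/4, and had calls both ways in JHH-7 sgKLB and sgFGFR1/3/4. Of 18 further positive acute phase genes tested in HuH-7, 11 rose and 1 fell in sgKLB (median 0.81 against 0.02 over all genes), and 11 rose and 1 fell in sgFGFR3/4 (0.51 against 0.07). Of all genes, 8.98% and 8.9% were called higher there. In HuH-7 sgFGFR4, 2 rose and 0 fell (0.23 against 0.06). FGA, the fibrinogen alpha chain, rose from 487.39 to 855.59 FPKM in HuH-7 sgKLB (log2 0.81), and SERPINA1, alpha-1-antitrypsin, from 423.76 to 879.10 (1.05). CD14, a lipopolysaccharide co-receptor, fell from 151.01 to 124.95 (-0.27). SAA4 and both ORM genes fell in the same libraries.

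In JHH-7, 7 of 19 rose and 2 fell in sgKLB (median 0.24), and 5 rose and 10 fell in sgFGFR1/3/4 (median -0.40), where 31.9% and 39.8% of all genes were called. FGA rose from 457.33 to 1221.90 FPKM in sgKLB (1.42) and to 889.26 in sgFGFR1/3/4 (0.96). SERPINA3, alpha-1-antichymotrypsin, fell from 54.52 to 11.62 in sgKLB (-2.13, limma adjusted p 1.1e-07) and to 9.14 in sgFGFR1/3/4 (-2.47, 5.49e-08). HPX, the heme-binding hemopexin, rose from 11.01 to 42.83 in sgKLB (1.86). C3, the central complement component, fell from 194.43 to 89.39 in sgFGFR1/3/4 (-1.11).

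Negative acute phase proteins, which drop in inflammation, mostly rose in sgKLB and sgFGFR3/4 of both lines and in JHH-7 sgFGFR1/3/4. Of 12 tested, 9 rose and 0 fell in HuH-7 sgKLB (median 0.66, with 8.98% of all genes higher), 9 and 1 in HuH-7 sgFGFR3/4 (0.45, 8.9%), 12 and 0 in JHH-7 sgKLB (1.31, 15.5%), and 9 and 1 in JHH-7 sgFGFR1/3/4 (0.53, 20.8%). In sgFGFR4 the count was 1 and 0 in HuH-7 (-0.02, 2.07%) and 4 and 0 in JHH-7 (0.30, 2.42%), and in JHH-7 sgFGFR3/4 it was 7 and 0 (0.50, 2.24%). TF, transferrin, rose from 1217.61 to 3089.74 FPKM in JHH-7 sgKLB (1.34), and APOA1, the main protein of high-density lipoprotein, from 918.70 to 3198.60. AHSG, fetuin-A, was the 1 that fell in JHH-7 sgFGFR1/3/4, from 911.15 to 491.00 (-0.89). Markers of hepatocytes moved with these groups, but the lists share genes, so this is no separate observation. ALB, TTR, TF, AHSG and APOA1 are also in the negative list, and SERPINA1 and FGB in the positive one. The hepatocyte markers summed to 21551.34 to 23347.35 FPKM in JHH-7 sgNTC, 37357.70 to 39643.10 in sgKLB and 25849.64 to 27759.42 in sgFGFR1/3/4. In HuH-7 the sum was 7608.22 to 7953.84 in sgNTC against 10664.14 to 11354.69 in sgKLB. Immune and stromal sums moved too. The immune sum was 312.37 to 357.95 FPKM in JHH-7 sgNTC and 229.97 to 244.72 in sgKLB, and 182.27 to 187.72 in HuH-7 sgNTC and 164.85 to 176.59 in sgKLB. Most of this sum was 1 gene, LYZ in JHH-7 (165.19 to 357.91 FPKM over the line) and CD14 in HuH-7 (121.42 to 153.27). Of 3 immune markers tested, 1 was called higher and 1 lower in HuH-7 sgKLB (17.6% of all genes called). In JHH-7 sgKLB 0 were higher and 1 lower (31.9%). The stromal sum was 22.36 to 30.3 in HuH-7 sgNTC and 37.39 to 45.13 in sgKLB, and 3.66 to 4.81 in JHH-7 sgNTC and 8.07 to 9.69 in sgKLB. The part of these markers in the sgKLB changes was not tested.

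Signal and factor genes are set against the share of all genes called, 31.9% in JHH-7 sgKLB, 39.8% in JHH-7 sgFGFR1/3/4 and 17.6% in HuH-7 sgKLB. Of 15 genes of the IL6 arm, 1 rose and 5 fell in JHH-7 sgKLB and likewise in sgFGFR1/3/4, and 3 rose and 1 fell in HuH-7 sgKLB. Their medians were -0.05, -0.09 and -0.05. STAT3 in JHH-7 sgFGFR1/3/4 fell from 94.17 to 66.74 FPKM (log2 -0.49, limma adjusted p 2.47e-05). LIF, an IL6-family cytokine, fell from 7.87 to 2.09 in sgKLB (-1.50) and to 1.82 in sgFGFR1/3/4 (-1.62). STAT3 in HuH-7 sgKLB rose from 48.27 to 60.63 (0.32).

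Of 15 genes of the IL1 and NF-kB arm, 2 rose and 7 fell in JHH-7 sgKLB, and 6 rose and 5 fell in sgFGFR1/3/4, with medians of -0.25 and 0.18. Of all genes, 15.5% were higher and 16.4% lower in the former, and 20.8% and 19% in the latter. NFKB2, an NF-kB subunit, fell from 32.65 to 16.13 FPKM in sgKLB (-0.97) and to 14.64 in sgFGFR1/3/4 (-1.10). CXCL8, a neutrophil chemokine and NF-kB target, fell from 11.74 to 4.91 in sgKLB (-1.13) and rose to 25.75 in sgFGFR1/3/4 (1.07). In HuH-7 sgKLB, 3 of the 15 rose and 2 fell.

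Of 13 transcription factors of acute phase genes, 5 rose and 3 fell in JHH-7 sgKLB, and 2 rose and 6 fell in sgFGFR1/3/4 (median -0.38 against 0.03 over all genes), beside 31.9% and 39.8% of all genes called. CEBPB, the C/EBP factor that cytokines induce, fell from 208.41 to 65.87 FPKM in sgKLB (-1.65, limma adjusted p 1.06e-07) and to 56.81 in sgFGFR1/3/4 (-1.85, 6.4e-08). HNF4A, a hepatocyte factor, rose from 63.05 to 106.81 in sgKLB (0.75). In HuH-7 sgKLB, 4 rose and 1 fell. Neutrophil markers also moved in JHH-7: 3 of 5 were under 1 FPKM in every library and ELANE was at 0, while the sum went from 317.67 to 355.29 FPKM in sgNTC to 41.72 to 50.72 in sgKLB and 50.71 to 129.34 in sgFGFR1/3/4. S100A9, most of that sum, fell from a mean of 339.28 to 43.99 FPKM in sgKLB, and its part in the changes of HAMP, ORM1 or HP was not tested.

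Genes most like each member were ranked by Pearson's r on log2(FPKM + 1) after centring each line, as a description over libraries that share groups. For ORM1 these were TGM2 (r = 0.94) and ASGR2 (0.91), and for ORM2 FDFT1 (0.89) and OGDH (0.86), over 27 libraries. HAMP was most like H1FX (0.86) and CBS (0.86), over the same 27. HP reached only 0.75 with BTN3A2 and 0.74 with C1S. SAA4, over the 12 HuH-7 libraries, was most like PDCD2L (0.96) and ELOVL1 (0.95), and SAA2 like MFSD2A (0.91) and CNOT3 (0.89). ITIH4, over the 15 JHH-7 libraries, was most like BTBD9 (0.87) and EIF4E3 (0.85).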

How the data were processed

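Total RNA of 27 libraries was sequenced, 12 of HuH-7 and 15 of JHH-7. The authors deposited FPKM per gene in 1 table for each line. RSEM and GRCh38/hg38 are named in the submitters' processing notes, but versions, annotation and strandedness are not given there or in the labels. FPKM holds no counts, so depth was estimated from the steps of low values (88.82% to 92.24% of them within 0.1 of a whole fragment), and no count test was run.

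Differences were tested with limma 3.58.1 (R 4.3.3, statmod 1.5.0; trend and robust, two-sided) on log2(FPKM + 1), which understates the change of low genes. Genes were kept that had 1 FPKM or more in 3 or more libraries of a fit. All libraries of a line shared 1 estimate of spread, and line differences were interaction terms over 27 libraries. The p-values measure the spread between the deposited replicates.

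All 58735 gene identifiers matched GENCODE 29, which gave positions and the transcripts used for shared 31-base words. Figures were drawn with matplotlib 3.10.9. The genes and lists were chosen with earlier results of these data known. Named genes are the 10 genes, neighbours that can share reads, guide targets, up to 2 genes in each direction with the smallest p of each list (a gene so named may be given in other groups too), and the 2 most similar genes. TXNL4B and AC006254.1 were added after their values were seen. Alternatives were a pseudocount of 0.1, no filter, rescaling to TPM, quantile normalization, a replicate block, summed neighbours, and leaving out each library. 1 motif and 1 gene of the lists are not reported here.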

Additional observations from a re-analysis of the deposited data

Results flagged for a closer look

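Differences between the lines in response to the same guides were past the threshold for 2 genes. ORM2 responded to sgKLB differently by 0.68 on the log2 scale (limma adjusted p 0.000125) and to sgFGFR3/4 by 0.51 (0.00954), with a fall in HuH-7 in both. In JHH-7 it rose with sgKLB, and its sgFGFR3/4 difference, 0.06, was not called. With ORM1 and ORM2 summed these differences were 0.01 and 0.12, but ORM1 was most of that sum.

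SAA4 differed in its response to sgKLB by 1.01 (limma adjusted p 0.0135) and to sgFGFR3/4 by 1.24 (0.0108). SAA4 was listed at 0 in all 3 JHH-7 sgNTC libraries, so a fall could not be seen in that line. With a pseudocount of 0.1 the sgKLB difference was not called (adjusted p 0.105).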

How the results depend on the processing

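Of 88 results on single genes, 32 were past the threshold. Their 1148 values under the alternatives gave the same call in 1083 cases, with 39 weaker, 24 stronger and 2 reversed. The calls of SAA4, ORM1 and ORM2 in HuH-7 sgKLB and sgFGFR3/4, and of ORM1 and HAMP in JHH-7 sgKLB and sgFGFR1/3/4, held under every alternative run, except that ORM2 is part of the sum with ORM1. That sum gave -0.28 in JHH-7 sgKLB and 0.56 in the sgNTC comparison of the lines, the 2 values counted as reversed for ORM2. ORM1 was most of the sum, so these 2 values cannot decide on ORM2 alone.

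Without the filter, fewer genes were called against more tests: 1 (546 with the filter) in HuH-7 sgFGFR4, 1433 (2371) in HuH-7 sgFGFR3/4, 1592 (2463) in HuH-7 sgKLB against sgFGFR4, 134 (238) in HuH-7 sgFGFR3/4 against sgFGFR4, 337 (637) in JHH-7 sgFGFR4, and 263 (529) in JHH-7 sgFGFR3/4. The line differences fell to 346 (689) for sgFGFR4 and 732 (1206) for sgFGFR3/4. The single calls of SAA4 in HuH-7 sgKLB against sgFGFR4 and of ORM1 in JHH-7 sgFGFR3/4 went to 0. TPM and quantile normalization both added ORM1 in HuH-7 sgFGFR3/4 against sgFGFR4 and in the sgFGFR4 line difference, making 1 call in each. TPM also added HP in HuH-7 sgKLB (adjusted p 0.037 in limma) and ended the ORM2 call of JHH-7 sgFGFR1/3/4 against sgFGFR3/4 (0.082), which the fit without the filter also lost (0.0773). Quantile normalization, with the filter, also added SAA2 in HuH-7 sgKLB (0.0478) and sgFGFR3/4 (0.0437) and ORM2 in JHH-7 sgFGFR1/3/4 against sgNTC (0.0368). Quantile normalization left 96 genes in HuH-7 sgFGFR4, and a pseudocount of 0.1 left 1 of 2 calls in the sgKLB line difference. How many of the 10 genes were called was not computed for summed neighbours.

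The split of calls, higher against lower, moved with the scaling. In HuH-7 sgKLB it was 1322 to 1269, and 1730 to 974 on TPM. In HuH-7 sgFGFR4 it was 304 to 242, 473 to 131 on TPM and 41 to 55 after quantile normalization, and in HuH-7 sgFGFR3/4 1309 to 1062, and 2238 to 639 on TPM. HuH-7 sgKLB against sgFGFR4 had 1044 to 1419, and 1384 to 1206 after quantile normalization. The line differences had 396 to 293 (TPM 268 to 460, quantile 403 to 194) for sgFGFR4 and 631 to 575 (TPM 394 to 1047) for sgFGFR3/4. The cause was not tested.

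Same-numbered replicates did not deviate together (0 of 18 pairs in HuH-7 and 0 of 30 in JHH-7 correlated above 0.1). With the replicate block, 1 gene was called in HuH-7 sgFGFR4 and 119 in HuH-7 sgFGFR3/4 against sgFGFR4, and ORM1 was lost in JHH-7 sgFGFR3/4 (0 calls, adjusted p 0.0681 in limma). The block also ended the ORM2 call of sgFGFR1/3/4 against sgFGFR3/4 (0.0584 in limma) and added HP in JHH-7 sgKLB against sgFGFR1/3/4 (0.0457 in limma).

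Leaving out 1 library gave 1807 to 2240 genes in HuH-7 sgKLB (3 to 4 of the 10 genes), 1 to 1207 in HuH-7 sgFGFR4 (0 to 1), 1153 to 2743 in HuH-7 sgFGFR3/4 (3 to 4), 4045 to 4542 in JHH-7 sgKLB (3 to 5), 222 to 842 in JHH-7 sgFGFR4 (0 to 1), 261 to 419 in JHH-7 sgFGFR3/4 (0 in each) and 4738 to 5578 in JHH-7 sgFGFR1/3/4 (2 in each). Between knockouts it gave 1214 to 1868 in HuH-7 sgKLB against sgFGFR4 (0 to 1), 100 to 148 in HuH-7 sgFGFR3/4 against sgFGFR4 (0 to 1), 3651 to 5027 in JHH-7 sgFGFR1/3/4 against sgFGFR3/4 (2 to 3) and 4213 to 4700 in JHH-7 sgKLB against sgFGFR1/3/4 (3 to 4). It gave 10051 to 10380 between the sgNTC groups (4 to 5), and 2869 to 3091 (2 to 3), 246 to 970 (0 in each) and 602 to 1620 (2 to 3) in the line differences of sgKLB, sgFGFR4 and sgFGFR3/4. A group of 2 left by this is assumed to vary like the others. Levels under 1 FPKM, as for CRP, SAA1 and LCN2, were too low to compare groups.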
